A study of Mus musculus with 22 samples.

Results

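The tissue inhibitors of metalloproteinases (TIMPs) of the mouse are the 4 genes Timp1, Timp2, Timp3 and Timp4. All 4 were on the array, among 20018 genes that could be named, and they were measured by 5 of its 55681 features. A feature was taken as a TIMP feature where the RefSeq accession in the scanner files belongs to one of these genes, a rule that uses no measured value. Timp1 was measured by A_55_P1985850, Timp3 by A_51_P463765 and Timp4 by A_51_P355427. Timp2 had A_52_P540219 and A_65_P12392, of which the first was brighter and represents the gene below.

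Lung RNA came from 22 female C57BL/6 mice that were 8 weeks old when the experiment began. Mitsui7, a multiwalled carbon nanotube, was given by one intratracheal instillation under anaesthesia, and the right lung was taken 24 hours later. The 5 controls received the vehicle alone, 0.9% NaCl with 10% acellular bronchoalveolar lavage fluid from other C57BL/6 mice, in which the particles of the treated mice were also suspended. The 3 treated groups received 18 µg (6 mice), 54 µg (5 mice) or 162 µg (6 mice), and each array held the RNA of 1 mouse. The protocol speaks of 6 mice a group, and the arrays analysed here number 5 for controls and for 54 µg. Throughout, Cy5 marked the lung and Cy3 a universal reference made of RNA from 11 mouse cell lines. Each value is therefore a log2 ratio of lung to reference, and it can be compared between mice but not between genes.

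TIMPs are small secreted proteins that block the zinc-containing active site of matrix metalloproteinases (MMPs), the enzymes that cut collagen, elastin and other parts of the extracellular matrix, and of some of the related ADAM and ADAMTS proteases. TIMP1 is known as the inducible member, which inflammatory cytokines raise in many tissues, while TIMP2 is made more evenly and also helps the membrane protease MMP14 to activate MMP2. TIMP3 is held in the matrix and has the widest range, including the shedding enzyme ADAM17 and the proteoglycan-cutting ADAMTS4 and ADAMTS5, and TIMP4 is best known from heart and fat.

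Of the TIMP genes, Timp1 rose at every dose, by 9.01-fold, 13.2-fold and 12.1-fold at 18, 54 and 162 µg. Timp3 and Timp4 passed the test at 162 µg, where they were 2.50-fold and 1.97-fold above controls, and both were higher at 162 µg than at 18 µg, by 3.01-fold and 3.08-fold. Timp2 passed the test at no dose. These changes come from a limma fit with dose and slide as terms over all 22 arrays, and to be called a gene had to be expressed above background and change by 1.5-fold or more with p no higher than 0.05 after Benjamini-Hochberg adjustment over 55681 features. By the same rule 2.08% of 16429 expressed genes were called at 18 µg, 0.39% at 54 µg and 6.87% at 162 µg, beside 1, 1 and 3 of the 4 TIMP genes. The 3 comparisons share the same controls, so a control value moves all of them together.

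The 4 genes lie on 4 chromosomes, and the sequences before their starts are shown so that their motifs can be set beside the values of the genes. Below are the 250 bases that precede each start in RefSeq (GRCm38.p6), 5′ to 3′ on the strand of the gene, from chrX:20869916-20870165 (plus strand), chr11:118355412-118355661 (minus strand), chr10:86300162-86300411 (plus strand) and chr6:115252206-115252455 (minus strand). Capitals mark the matches to AGGAAG, a core that ETS factors bind, and to GGGCGG, the box of Sp1, on either strand.
Timp1: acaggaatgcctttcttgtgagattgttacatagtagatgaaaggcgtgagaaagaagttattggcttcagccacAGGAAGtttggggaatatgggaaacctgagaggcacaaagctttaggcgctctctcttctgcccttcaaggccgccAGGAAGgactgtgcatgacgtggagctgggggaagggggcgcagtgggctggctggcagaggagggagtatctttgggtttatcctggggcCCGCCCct
Timp2: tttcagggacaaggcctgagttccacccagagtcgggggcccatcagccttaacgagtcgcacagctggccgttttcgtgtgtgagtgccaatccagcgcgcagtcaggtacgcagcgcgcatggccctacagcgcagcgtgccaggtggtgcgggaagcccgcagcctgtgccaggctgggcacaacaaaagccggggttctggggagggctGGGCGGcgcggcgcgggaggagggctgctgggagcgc
Timp3: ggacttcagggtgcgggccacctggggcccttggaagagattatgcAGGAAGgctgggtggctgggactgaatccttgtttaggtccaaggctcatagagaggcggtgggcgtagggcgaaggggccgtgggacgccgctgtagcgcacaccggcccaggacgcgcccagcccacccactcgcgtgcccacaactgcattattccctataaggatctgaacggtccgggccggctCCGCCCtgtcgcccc
Timp4: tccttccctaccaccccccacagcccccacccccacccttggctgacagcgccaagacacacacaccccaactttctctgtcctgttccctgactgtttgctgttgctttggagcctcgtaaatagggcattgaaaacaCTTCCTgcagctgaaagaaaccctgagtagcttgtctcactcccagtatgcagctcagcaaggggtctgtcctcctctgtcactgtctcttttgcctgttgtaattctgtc
Over windows of 300 bases that also take in the first 50 after the start, Timp2 and Timp3 were rich in CpG, with 25 and 24 of them, while Timp1 had 8 and Timp4 had 2. The median over 32851 RefSeq windows of that length was 7. The Sp1 box was found in the windows of Timp1, Timp2 and Timp3 and in 35.7% of all windows, and the ETS core in those of Timp1, Timp3 and Timp4 and in 35.4%. Timp1 had the ETS core at 3 places, 1 of them after the start. TGAGTAA, a variant of the site of AP-1 (the Fos and Jun factors) that is known from Timp1, was found from base 27 to 33 after its start and in 2.68% of all windows, and was added to the search after the windows had been read. The common AP-1 form TGANTCA (7.81% of all windows), the STAT form TTCNNNGAA (8.3%) and TATAAA (13.6%) were in none of the 4. Both strands were searched, and a match says only that the letters are there.

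**Figure D1:**
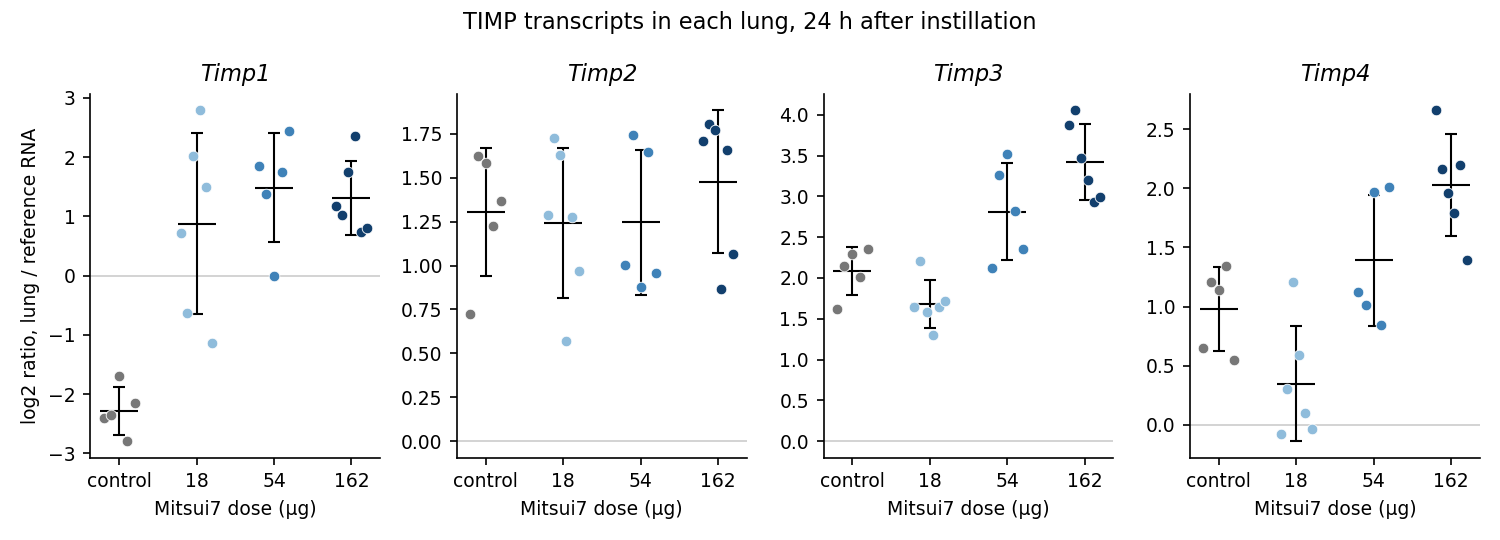
Log2 ratio of lung to reference RNA (vertical axis, a scale of its own in each panel) of the 4 TIMP genes, by dose of Mitsui7. Each point is 1 mouse, the wide bar is the group mean and the error bars are 1 SD. For Timp1 all 17 treated mice lie above the 5 controls, and for Timp3 and Timp4 all 6 mice at 162 µg do.

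Timp1 had a log2 ratio to the reference of -2.41, -2.36, -1.69, -2.79 and -2.15 in control replicates 1 to 5, which is a mean of -2.28 ± 0.40 (SD, n = 5). At 18 µg the lowest of 6 mice had -1.13, the median was 1.10 and the highest 2.79. The mice at 54 µg had 1.85, 1.38, -0.01, 1.75 and 2.45. At 162 µg the lowest value was 0.74, the median 1.10 and the highest 2.35. Every treated mouse was above every control, and the gap between the highest control and the lowest treated mouse, on 18 µg, was narrower than the spread among the 18 µg mice.

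The spread of Timp1 differed with the group. At 18 µg its SD was 1.53, against 0.92 at 54 µg and 0.63 at 162 µg, and replicates 2 and 6, at -0.63 and -1.13, were the only treated mice with a ratio clearly below 0. In limma the log2 fold changes at 18, 54 and 162 µg came to 3.17 ± 0.59, 3.72 ± 0.63 and 3.59 ± 0.59 (± SE), with adjusted p of 0.0199, 0.0249 and 0.00180. Between doses no difference was detected. The difference between 162 µg and 18 µg was 0.42 on the log2 scale with a 95% confidence interval from -0.74 to 1.58, so that a step of either sign lies within it.

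The calls of Timp1 at the lower doses were close to the threshold. At 18 µg the call was lost without control replicate 1 or 5 or 18 µg replicate 5, with log2 fold changes of 3.02 to 3.18 and adjusted p of 0.0655 to 0.0817 in limma. At 54 µg it was lost without control replicate 1, 3, 4 or 5, 54 µg replicate 1, 2 or 4 or 162 µg replicate 1, with 3.47 to 3.95 and adjusted p of 0.0501 to 0.124. With arrays only centred on their median, Timp1 kept log2 fold changes of 2.50 and 3.34 at these doses but was not called (adjusted p = 0.134 and 0.307), and the median of all expressed genes then lay at -0.26 and -0.03. Scaling the log ratios between arrays, chosen after the data had been seen, also ended both calls (2.99 and 3.67, adjusted p = 0.0597 and 0.0525), and the deposited log2 table that at 54 µg (3.38, adjusted p = 0.0773). The paper lists Timp1 as higher on its arrays at the low, medium and high doses. By RT-qPCR it lists Timp1 as higher at the high dose and at a dose below these, with no significant change at the low and medium doses. Why RT-qPCR and arrays differ for Timp1 was not tested.

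Timp3 had a log2 ratio of 1.62, 2.15, 2.29, 2.02 and 2.36 in the controls (mean 2.09 ± 0.29, SD, n = 5). At 18 µg the lowest value was 1.30, the median 1.64 and the highest 2.21, so that none of the 6 mice was above the highest control and 2 were below the lowest. At 54 µg the mice had 2.12, 3.26, 3.52, 2.82 and 2.35, and 3 of 5 were above all controls. At 162 µg the lowest value was 2.93, the median 3.33 and the highest 4.06, with 6 of 6 mice above all controls.

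For Timp3 limma gave log2 fold changes of -0.27 ± 0.20, 0.86 ± 0.21 and 1.32 ± 0.20 (± SE) at 18, 54 and 162 µg, with adjusted p of 0.586, 0.133 and 0.0009365. Its level at 162 µg was 1.59 ± 0.19 (SE) above that at 18 µg, with adjusted p = 0.0002251, and these groups did not overlap. The step from 18 to 54 µg was 1.12 (adjusted p = 0.0541) and came within the threshold without 18 µg replicate 1, 54 µg replicate 1 or 162 µg replicate 6, with 1.12 to 1.26 and adjusted p of 0.0274 to 0.0459. Timp3 kept its call at 162 µg in all 22 fits with 1 mouse left out, between 1.22 and 1.47. It lost the call with arrays centred on their median (0.94, adjusted p = 0.145 in limma, with the median of all expressed genes at -0.18). The paper lists Timp3 as higher at the high dose on its arrays, but with no significant change there by RT-qPCR. By RT-qPCR it lists Timp3 as lower at the low and medium doses. Why RT-qPCR and arrays differ was not tested.

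Timp4 had a log2 ratio of 0.65, 1.20, 1.14, 1.35 and 0.55 in the controls (mean 0.98 ± 0.36, SD, n = 5). At 18 µg the lowest value was -0.08, the median 0.20 and the highest 1.20, and 4 of 6 mice were below all controls. The mice at 54 µg had 1.12, 1.01, 1.97, 0.84 and 2.01. At 162 µg the lowest value was 1.39, the median 2.06 and the highest 2.66, so that 6 of 6 mice were above all controls, the lowest of them by little.

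For Timp4 limma gave log2 fold changes of -0.64 ± 0.24, 0.55 ± 0.26 and 0.98 ± 0.24 (± SE) at the 3 doses, with adjusted p of 0.192, 0.572 and 0.0211. From 18 µg to 162 µg Timp4 rose by 1.62 ± 0.22 (SE), with adjusted p = 0.0006543 and no overlap of the groups. The call at 162 µg was lost without control replicate 2, 4 or 5 or 162 µg replicate 1, 2 or 5, with 0.82 to 0.96 and adjusted p of 0.0531 to 0.0841, in the deposited log2 table (0.80, adjusted p = 0.0735) and with arrays centred on their median (0.73, adjusted p = 0.270). The rise from 18 µg kept its call in all 22 fits with 1 mouse left out, between 1.48 and 1.77. It was smaller in the Cy5 channel alone (0.97, adjusted p = 0.00420) and not called without normalization (1.54, adjusted p = 0.0935). On 18 µg replicate 6 Timp4 was not well above background, and on 18 µg replicates 4 and 5 its Cy5 signal was not far above it. Its feature was the dimmest of the TIMP features, and no background was subtracted. The Timp4 ratios at 18 µg, and the rise from there to 162 µg, thus rest in part on signals near background.

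Timp2 gave no call on either of its features. On the brighter one the controls had log2 ratios of 0.72, 1.62, 1.59, 1.22 and 1.37, the 18 µg mice ran from 0.57 through a median of 1.28 to 1.73, the 54 µg mice had 1.00, 1.74, 0.88, 1.64 and 0.96, and the 162 µg mice ran from 0.86 through 1.68 to 1.80. The groups overlapped throughout. In order of dose the log2 fold changes were 0.20, 0.27 and 0.33, with 95% confidence intervals of -0.01 to 0.41, 0.04 to 0.50 and 0.11 to 0.54 and adjusted p of 0.368, 0.457 and 0.0695 in limma. The interval at 162 µg reaches no further than 0.54, which is under the 0.58 that 1.5-fold comes to. The dimmer feature gave 0.27, 0.13 and 0.40 (adjusted p = 0.336, 0.886 and 0.0922), where the last interval ran from 0.12 to 0.68. At 18 µg the small change of the brighter feature turned negative with arrays centred on their median (-0.17), without normalization (-0.34), in the Cy5 channel alone (-0.20) and without the slide term (-0.06).

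**Figure D2:**
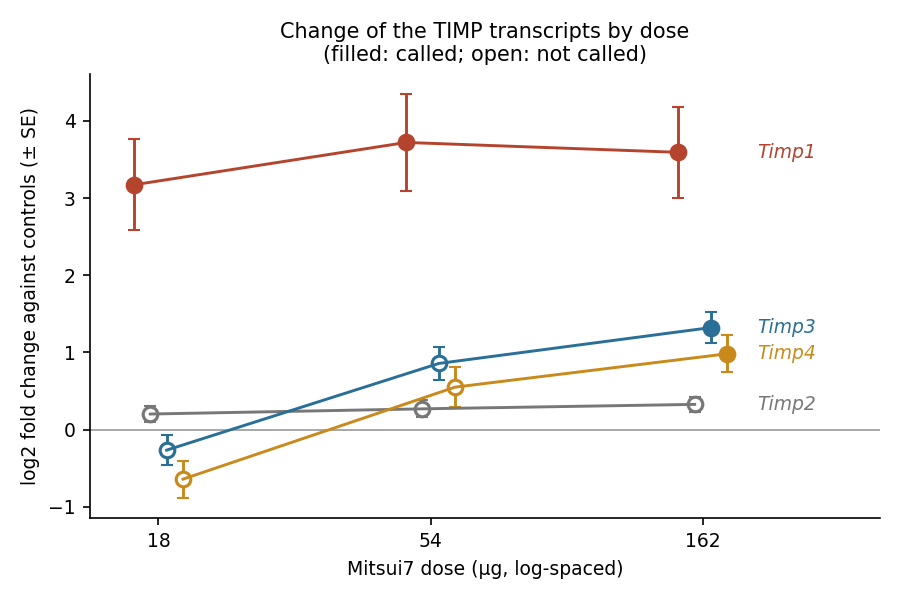
Log2 fold change of each TIMP gene against the 5 controls (vertical axis, error bars 1 standard error of the limma fit) at 18, 54 and 162 µg Mitsui7 (horizontal axis, log-spaced doses). Filled points passed the test and open points did not. Timp1 lies above 3 at each dose, Timp2 stays between 0.20 and 0.33, and Timp3 and Timp4 go from -0.27 and -0.64 at 18 µg to 1.32 and 0.98 at 162 µg.

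The steps of Timp3 and Timp4 between doses can be read against those of all genes. Of 16429 expressed genes 4.99% were called between 162 µg and 18 µg, beside 2 of the 4 TIMP genes. Between 54 µg and 18 µg 0.0304% were called and none of the TIMP genes. Between 162 µg and 54 µg limma called 0 genes (0%), with 2042 genes at an unadjusted p under 0.05, and the differences of the TIMP genes ran from -0.13 for Timp1 to 0.47 for Timp3. The share of features above background ran from 70.4% to 77.5% on control arrays and from 50.3% to 83.5% at 162 µg, and all 8 arrays under 65% were from treated mice. Without those 8, an alternative chosen after the data had been seen, the same numbers of TIMP genes were called at each dose and between 162 µg and 18 µg.

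**Figure D3:**
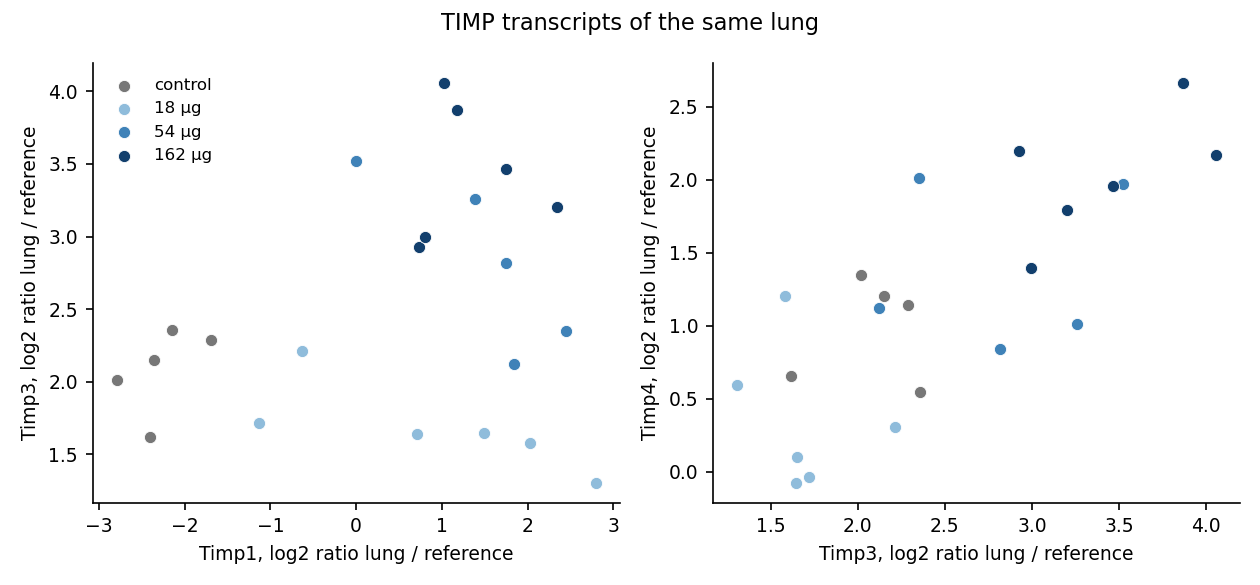
Log2 ratios to the reference of Timp1 and Timp3 (left) and of Timp3 and Timp4 (right) in the same 22 lungs, coloured by dose of Mitsui7. On the left the 18 µg mice spread along the Timp1 axis from -1.13 to 2.79 at Timp3 ratios of 1.30 to 2.21. On the right the 162 µg mice hold the upper right corner.

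Taken mouse by mouse, Timp3 and Timp4 were the most alike of the TIMP genes, with Pearson's r = 0.77 over the 22 arrays, and Timp1 and Timp3 had r = 0.22. These values describe arrays that share dose groups and slides, and they carry no test. The 18 µg mice show how Timp1 and Timp3 parted. Replicate 4 had the highest Timp1 ratio of all 22 mice, 2.79, and the lowest Timp3 ratio, 1.30. At 54 µg, replicate 3 had the lowest Timp1 ratio of its group, -0.01, and the highest Timp3 ratio, 3.52. Both arrays lay on slide 3 and were among the dimmer ones, with 61.7% and 57.0% of features above background.

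The arrays lay on 7 slides, and slides 3 and 6 held no control. Within the other slides, each treated mouse was set against the control of its own slide. Each control served more than 1 treated mouse, so these pairs are not independent. Timp1 was higher in 11 of 11 such pairs, and in order of dose the differences ran from 1.73 to 4.82, from 3.07 to 4.26 and from 2.71 to 4.54 on the log2 scale. Timp3 was higher in 4 of 4 pairs at 162 µg (0.57 to 1.77) and in 3 of 3 at 54 µg (0.46 to 0.97), while at 18 µg its differences ran from -0.71 to 0.06. Timp4 was lower than the control of its slide in 4 of 4 pairs at 18 µg (-0.90 to -0.14) and higher in 4 of 4 at 162 µg (0.61 to 1.65). On the 5 slides that held both an 18 µg and a 162 µg mouse, the 162 µg mouse had the higher Timp3 ratio on all 5 (by 1.28 to 1.90) and the higher Timp4 ratio on all 5 (by 0.75 to 2.36), and the higher Timp1 ratio on 2. The brighter Timp2 feature differed from the control of its slide by -0.09 to 0.56 over all pairs.

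**Figure D4:**
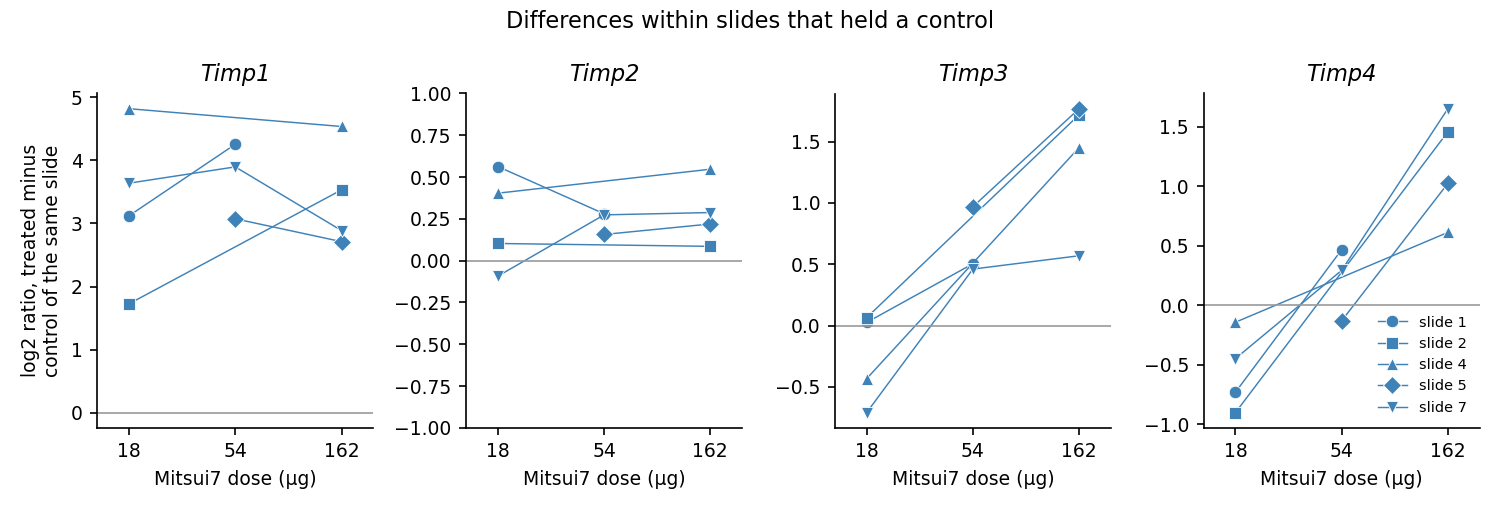
Log2 ratio of each treated mouse minus that of the control on the same slide (vertical axis, a scale of its own in each panel) by dose of Mitsui7, for the 5 slides that held a control. Each symbol is a slide and lines join mice of one slide. Timp1 lies between 1.73 and 4.82 on all slides, and the lines of Timp3 and Timp4 go up from 18 µg to 162 µg on each slide that has both.

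The genes of the proteases that TIMPs inhibit were counted next. Of 23 matrix metalloproteinase genes 22 were on the array and 15 were expressed, and 1 of these was called at 18 µg, 0 at 54 µg and 1 at 162 µg, with a median log2 fold change of -0.07, 0.06 and 0.09 beside -0.02, -0.01 and -0.01 over all expressed genes. Of all expressed genes 2.08%, 0.39% and 6.87% were called at these doses, and at 162 µg 1 of 15 is near that share. The gene called was Mmp14, the membrane protease that works with TIMP2, which in limma rose by 0.73 ± 0.15 and 0.83 ± 0.15 (SE) at 18 and 162 µg, with adjusted p of 0.0224 and 0.00272. At both doses all 6 mice had more Mmp14 than any control. The call at 18 µg held in 6 of 15 alternatives, some of which reuse the main fit and could not end it. Mmp2, the gelatinase that MMP14 activates, had 0.06 (adjusted p = 0.952) at 162 µg, with 1 control array and 1 array each at 54 and 162 µg left out as outlier spots. Mmp9, the gelatinase of neutrophils and macrophages, had 0.18 (adjusted p = 0.868). Mmp3, the stromelysin that cuts proteoglycans and other proteases, was not called against controls (0.80, adjusted p = 0.129 at 162 µg), and it was 1.01 higher at 162 µg than at 18 µg (adjusted p = 0.0417), a call that held in 7 of 22 fits with 1 mouse left out.

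None of 9 ADAM genes, all expressed, was called at any dose, where 2.08%, 0.39% and 6.87% of all genes were, and nothing is read from the count of so short a list. Their median at 162 µg was -0.06. Adam17, which releases TNF and other ligands from the cell surface and which TIMP3 inhibits, had log2 fold changes of 0.09, -0.25 and -0.28 (adjusted p = 0.798, 0.654 and 0.237). Of 19 ADAMTS genes 16 were expressed, with 0 called at 18 µg, 1 at 54 µg and 1 at 162 µg and a median of 0.12 at 162 µg. The gene called at 162 µg was Adamts4, an aggrecan-cutting protease and a target of TIMP3. Its log2 ratio was -2.56 ± 0.35 (SD, n = 5) in controls, where 2 of 5 arrays had it well above background, and -0.28 ± 0.47 (SD, n = 6) with 162 µg, between which the 18 and 54 µg groups lay at -1.49 and -0.81. The change with 162 µg came to 2.17 ± 0.30 (SE, adjusted p = 0.000541 in limma), and the 162 µg group lay 1.27 above the 18 µg group (adjusted p = 0.0153). Adamts5, its relative with the same substrate, had -0.04 (adjusted p = 0.952) at 162 µg. Adamts9, a protease of versican, was called at 54 µg (0.82, adjusted p = 0.0367). That call was kept by 8 of 15 alternatives, some of which could not end it, and by 11 of the 22 fits that leave out 1 mouse.

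Of 7 genes of other metalloproteinase inhibitors and enhancers 5 were expressed. Pcolce2, which enhances the processing of procollagen, fell by 0.71 at 162 µg (adjusted p = 0.0421 in limma), with all 6 mice lower than any control, a call that held in 9 of 22 fits with 1 mouse left out. Reck, a membrane-bound inhibitor of MMPs, had -0.42, -0.21 and -0.11 (adjusted p = 0.185, 0.820 and 0.820). No gene of this list was called higher at any dose.

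Among 6 expressed genes of proteins that bind TIMPs, the tetraspanin Cd63, a cell surface partner of TIMP1, rose by 0.86 ± 0.18 (SE) with 162 µg, where no mouse overlapped the controls (adjusted p = 0.00816 in limma). At 18 and 54 µg it had 0.62 and 0.70 (adjusted p = 0.0870 and 0.184), with 5 of 6 and 5 of 5 mice past the highest control. Itga3, the integrin chain that pairs with Itgb1 as a TIMP2 receptor, rose by 1.01 at 162 µg (adjusted p = 0.0225), a call kept in 17 of 22 fits with 1 mouse left out. The paper lists Itga3 as higher at the high dose on its arrays, with no significant change there by RT-qPCR. At the medium dose it lists Itga3 as lower by RT-qPCR. Kdr, the VEGF receptor that TIMP3 binds, was 0.65 higher at 18 µg (adjusted p = 0.0478) and 0.06 at 162 µg (adjusted p = 0.909), so that it was lower by 0.59 at 162 µg than at 18 µg (adjusted p = 0.0283). Of 22 fits with 1 mouse left out, 5 kept the call of Kdr at 18 µg and 12 that between the doses, and over the alternatives the difference between doses came down to -0.20. Efemp1, a matrix protein that binds TIMP3, fell by 0.66 at 162 µg (adjusted p = 0.0347 in limma), a call kept in 15 of 22 such fits. The calls named here are all those of this list. The share of all expressed genes called is given with the proteases above, and nothing is read from the count of so short a list.

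A list of cytokines, receptors and factors tied to the induction of Timp1 in other settings was counted as well. It also holds Socs3, a feedback inhibitor and not an inducer. Of its 22 genes, all expressed, 0 were called at 18 µg and 0 at 54 µg. At 162 µg 4 were called, each higher and Socs3 among them. In order of dose 18, 20 and 20 of the 22 had a positive log2 fold change, with medians of 0.24, 0.38 and 0.39. Over all expressed genes 0.633%, 0.25% and 3.34% were called higher at these doses, and 46.4%, 47.4% and 48.8% had a positive change. Il6, the interleukin that acts through STAT3, was not well above background on any control array and was at least 8.49-fold higher at 162 µg (adjusted p = 0.00153 in limma), and no mouse of that group overlapped the controls. This bound sets the mean Cy5 signal of the treated mice, once loess and then a quantile step on array averages had been applied, against the lowest signal well above background on each control array or the control's own signal where that was higher, and with no swap of dyes it may carry a bias between them. Socs3, the feedback inhibitor that STAT3 turns on, rose by 1.28 (adjusted p = 0.00215). Of the AP-1 genes, Fosl1 rose by 0.79 (adjusted p = 0.0117) and Junb by 0.90 (adjusted p = 0.0187, with 5 of 6 mice measured), and Fos had 0.47 (adjusted p = 0.621). At 18 µg none of the 4 was called, with Il6 at least 3.39-fold higher (6 of 6 mice above all controls, adjusted p = 0.0698) and Socs3, Fosl1 and Junb at 0.73, 0.59 and 0.80 (5 of 6 mice each, adjusted p = 0.0950, 0.0922 and 0.0653). Whether their course over dose differs from that of Timp1 was not tested.

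**Figure D5:**
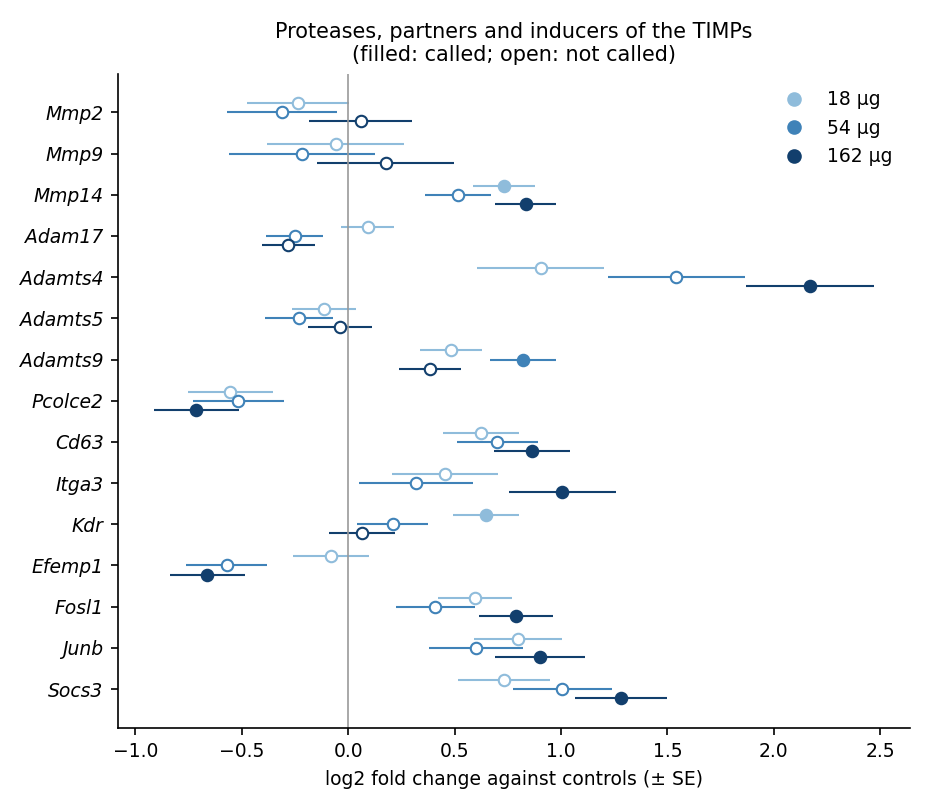
Log2 fold change against controls (horizontal axis, error bars 1 standard error of the limma fit) at 18, 54 and 162 µg Mitsui7. The genes are from the lists of proteases, inhibitors, binding partners and inducers of the TIMPs. Socs3, on the inducer list, is a feedback inhibitor. Filled points passed the test and open points did not. Mmp2, Mmp9, Adam17 and Adamts5 lie near 0, while Adamts4 goes from 0.90 at 18 µg to 2.17 at 162 µg.

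Timp1, Timp3 and Timp4 are each nested within a synapsin gene, a gene of synaptic vesicles, on its opposite strand. Of the synapsin genes Syn1, Syn2 and Syn3 and of Cep295nl, which lies within Timp2, none was called at any dose, and their log2 fold changes at 162 µg were -0.19, 0.02, 0.03 and 0.31. The share of all expressed genes called is given with the proteases above, and this short list is too small for its count to be read.

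The genes whose log2 ratios followed each TIMP gene most closely over the 22 arrays were looked for among 15000 other expressed genes with a value on every array. For Timp1 they were Ccl2 (Pearson's r = 0.94), Ctps (0.93), Ccl7 (0.91), Ch25h (0.91) and Cd63 (0.91). Ccl2 and Ccl7 are chemokines that draw monocytes, Ctps makes CTP and Ch25h makes an oxysterol. The log2 fold changes of Ccl2 were 2.02, 2.67 and 2.21. For Timp3 they were Akr1c14 (0.95), Sh3d21 (0.93), Rgcc (0.93), Clca3a2 (0.92) and Ehd3 (0.92). Akr1c14, an aldo-keto reductase, had -0.66, 1.00 and 2.33 at the 3 doses, and Rgcc, a regulator of the cell cycle, had -0.43, 1.03 and 1.99. For Timp4 they were Myom1 (0.89), Hspb7 (0.88), Fbxo15 (0.88), Pdk4 (0.87) and Qsox1 (0.86), of which Myom1 and Hspb7 are genes of heart and skeletal muscle and Pdk4 holds back glucose oxidation. Myom1 had -0.64, 0.47 and 0.88. For Timp2 the closest, the transcription factors Hmbox1 and Rest, reached 0.79 each, followed by Acyp2, Stx7 and Tmem132d (0.79, 0.77 and 0.77). With the means of group and slide taken out, the lists held other genes throughout, led by Umps (0.94) for Timp1, Rin2 (0.86) for Timp2, F2r (0.89) for Timp3 and Sult1d1 (0.91) for Timp4. The arrays share slides and dose groups, and these values carry no test.

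Whole lung holds many cell types, and in such RNA fewer cells of a type and less RNA per cell cannot be told apart. Lists of marker genes gave the levels of other cell types beside the TIMP changes, as the mean log2 ratio of a list less its mean in controls. Heart muscle markers, 10 of 10 expressed and none called at any dose, varied widely from mouse to mouse, with levels that spanned -2.35 to 2.49 among controls, while the groups on 18, 54 and 162 µg spanned -2.35 to 0.71, -2.26 to 2.03 and -2.41 to 1.47. Their level had r = 0.53 with Timp4 over the 22 arrays, and in the fit all 10 were lower at 18 µg (median -0.93), 10 of 10 higher at 54 µg (median 0.69) and 7 of 10 higher at 162 µg (median 0.20), beside -0.64, 0.55 and 0.98 for Timp4. Fat cell markers ran from -0.80 to 1.42 in controls and from -2.39 to 2.37 at 162 µg, with r = 0.44 to Timp4. The part of these tissues in the Timp4 values was not tested.

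Neutrophil markers, 10 of 10 expressed, had levels between -0.81 and 1.56 in controls, and those of the 3 treated groups, in order of dose, lay between -0.59 and 0.29, -0.20 and 0.63, and -0.48 and 1.99. Only Il1r2, a decoy receptor for interleukin 1, was called among them at 162 µg. Their level had r = 0.63 with Timp4, the highest of the 14 cell type lists, and 0.54 with Timp3 over the 22 arrays. Of the 5 eosinophil markers 4 were expressed, of which Ear6, a ribonuclease, was called at 162 µg (0.81). In order of dose 4, 3 and 2 of these 4 had a positive log2 fold change. Epx, which defines the cell, was not well above background on any array. Alveolar macrophage markers ran from -0.24 to 0.25 in controls and from -0.06 to 0.90 at 162 µg, and those of recruited monocytes from -0.23 to 0.76 and from -0.14 to 0.89. The recruited monocyte level had r = 0.58 with Timp1, the highest of these lists. Of the macrophage list the scavenger receptor Marco was called at 162 µg (1.51) and Chil3, a chitinase-like protein, at 18 µg (1.73). Arg1, an enzyme of arginine use listed with the recruited monocytes, was called at all 3 doses (2.06, 2.92 and 1.76). Spp1, the matrix protein osteopontin, on the same list, was called at 162 µg (0.80). In order of dose 3, 7 and 5 of the 7 recruited monocyte genes measured had a positive log2 fold change. Most of that list was thus lower at 18 µg, where Arg1 was higher. Of the 8 macrophage genes 5, 5 and 7 had a positive change. Fibroblast markers were lower in 9 of 10 genes at 18 µg and 8 of 10 at 54 and 162 µg, with a median of -0.52 at 162 µg and levels of -0.15 to 0.20 in controls and -0.72 to -0.11 at 162 µg, and 1 was called, the collagen gene Col3a1 (-0.96). Their level had r = -0.60 with Timp1. Pericyte markers, of cells that are known to make TIMP3, had a median of -0.07 at 162 µg with 0 of 8 called, and their level had the highest r of these lists with Timp3, 0.57. Markers of endothelium had a median of 0.12 with 0 of 8 called. The lung's own cells were well covered, with 7 of 7 type II and 5 of 5 measured type I alveolar markers expressed, and medians of -0.02 and 0.14 at 162 µg with 0 and 1 called. Club cell and ciliated cell markers lay lower, at -0.41 with 1 of 3 called and -0.87 with 2 of 5 called, and mesothelial markers at 0.07 with 0 of 6 called. The share of all expressed genes called at 162 µg, given with the proteases above, is the measure for these counts. Nothing is read from the counts of such short lists. The part of any of these cell types in the TIMP changes was not tested.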

How the data were processed

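Lung RNA of 22 mice was hybridised on two-colour Agilent arrays against a common reference. The authors deposited the intensity of each spot, median pixel signals of Cy5 (lung) and Cy3 (reference), neither background subtracted nor normalized (scanner software: Feature Extraction 10.7.3.1). A deposited table of log2 ratios, whose making is not given in the sources used here, served as an alternative. Its columns have medians of -0.0516 to -0.0166 and correlate with the values used here at r = 0.834 to 0.998, on a scale that differs by slide (slopes of 0.587 to 0.996).

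Outlier spots were left out (no TIMP spot was one). Loess (span 0.3) was applied to the log2 ratios of each array, replicate spots were reduced to their median, and 26413 of 55681 features were named by RefSeq accession. Dose and slide were fitted in limma 3.58.1 (R 4.3.3) over all arrays (residual degrees of freedom 12), with Benjamini-Hochberg adjustment. A feature counted as expressed (39516 did) where Cy5 passed a floor on 80% or more of a group's arrays, the floor being the 5%-trimmed mean of 308 negative control spots plus 3 trimmed SD. Each slide had a scan day of its own, so the effects of slide and day cannot be told apart. The number of arrays limits the precision. The fit was tested on simulated data.

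Alternatives were the normalization, background correction, channel, deposited table, spot summary, slide term, expression and fold thresholds, feature rule and mice left out. Members, lists and tests were chosen with earlier results of these data known. Named genes are all TIMP features, the 5 genes most like each TIMP gene, of each list of proteases, inhibitors, partners, inducers and host genes those called at any dose, up to 6, and Mmp2, Mmp9, Mmp14, Cd63, Adam17, Adamts4 and Adamts5. Mmp3, Reck, Fos, Ets1, the synapsin genes, Cep295nl and the cell markers named were added after their values had been seen. No label ties mice to litters or cages.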

Additional observations from a re-analysis of the deposited data

How the results depend on the processing

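The 16 alternatives, including the replicate block below, differ in how far they could move a TIMP call. Those on the expression filter and the fold threshold reuse the main fit and could not change one. The mean of features alters the values of Timp2 alone among the TIMP genes. The number of alternatives that kept the calls is therefore not read as support. Calls of TIMP genes changed with the normalization, the deposited table and the Cy5 channel alone. With arrays only centred on their median, where the median of all expressed genes moved to -0.26, -0.03 and -0.18 at 18, 54 and 162 µg, 0, 0 and 1 TIMP genes were called. Timp1 was at 2.50 and 3.34 at 18 and 54 µg, and Timp3 and Timp4 were at 0.94 and 0.73 at 162 µg, all uncalled, and Timp2 turned to -0.17 at 18 µg and to -0.19 between 162 and 54 µg. With no normalization, where those medians were -0.42, 0.13 and -0.21, 0 TIMP genes were called at any dose or between 162 and 18 µg. Timp1 was then at 2.33, 3.51 and 2.99, Timp3 and Timp4 at 0.92 and 0.72 at 162 µg and 1.73 and 1.54 between 162 and 18 µg, Timp2 at -0.34 at 18 µg and -0.37 between 162 and 54 µg, and Timp3 at -0.0090 between 162 and 54 µg. Scaling of the log ratios between arrays, chosen after the data had been seen, left 0 TIMP genes called at 18 µg and 0 at 54 µg (Timp1 at 2.99 and 3.67). The deposited log2 table called 0 at 54 µg (Timp1 at 3.38), gave Timp4 0.80 at 162 µg, uncalled, and turned Timp1 between 162 and 54 µg to 0.20. The Cy5 channel alone called 1 gene between 54 and 18 µg, Timp3 at 1.16, turned Timp2 to -0.20 at 18 µg and lowered Timp4 between 162 and 18 µg to 0.97, still called. Timp2, uncalled throughout, also turned sign without the slide term (-0.063 at 18 µg and -0.060 at 54 µg), as the mean of its features (-0.037 between 54 and 18 µg) and without the 8 dim arrays, also chosen after the data had been seen (-0.023 between 162 and 18 µg and -0.15 between 54 and 18 µg). Why these values moved was not tested. Quantile normalization of the array averages leaves ratios as they are by construction, and scan day coincided with slide, so neither was a separate fit.

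The replicate numbers of the labels were not taken to pair the mice, since no label says that equal numbers belong together. Deviations from the group means correlated at a median r of 0.17 over 31 pairs of the same number, with 20 over 0.1 and the lowest at -0.17, against a median of -0.056 and 40 of 150 over 0.1 for other numbers. Same-number pairs lay on 1 slide in 11 of 31 cases, and 12 of 22 arrays were closest to one of their own number, a hint from the data and not the design. With a replicate block in place of slide, Timp1 had 3.41, 3.76 and 3.84 at the 3 doses, Timp3 1.37 and Timp4 1.15 at 162 µg, and the same numbers of TIMP genes were called, while the uncalled values of Timp1 between 162 and 54 µg (0.072) and of Timp2 at 54 µg (-0.060) and between 54 and 18 µg (-0.066) turned sign.

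With 1 mouse left out at a time, 0 to 1 TIMP genes were called at 18 µg, 0 to 1 at 54 µg, 2 to 3 at 162 µg, 0 to 1 between 54 and 18 µg and 2 between 162 and 18 µg. Timp1 ran from 2.83 to 3.51, 3.28 to 4.29 and 3.25 to 3.80 at the 3 doses, from -0.057 to 1.33 between 54 and 18 µg, from -0.071 to 0.88 between 162 and 18 µg and from -0.90 to 0.48 between 162 and 54 µg. Timp2 ran from 0.12 to 0.27, 0.21 to 0.32 and 0.27 to 0.37 at the doses and from 0.00 to 0.15 between 54 and 18 µg. Timp3 ran from 1.22 to 1.47 at 162 µg, from 0.87 to 1.26 between 54 and 18 µg and from 1.44 to 1.69 between 162 and 18 µg. Timp4 ran from 0.82 to 1.13 at 162 µg and from 1.48 to 1.77 between 162 and 18 µg.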
